A study of Homo sapiens with 15 samples.

Results

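The genes described here are 9 human genes of the antioxidant and iron storage programme that the transcription factor NRF2 drives: GCLC, GCLM, NQO1, HMOX1, TXNRD1, SRXN1, OSGIN1, FTH1 and FTL. They were chosen by symbol, and all 9 stood in the gene tables of both cell lines, among 62703 genes in all. Expression was measured by sequencing total RNA, after removal of ribosomal RNA, in 15 libraries from 2 established human lines. HEK293T is a kidney line of embryonic origin, and HuCCT1 is a line from a cancer of the bile duct. HEK293T had 3 libraries each with the genotype labels SNRPD2KO, PUS7KO and Ctrl, and HuCCT1 had 3 each with SNRPD2KO and Ctrl. Both knockouts were made with CRISPR-Cas9. SNRPD2 encodes SmD2, a core protein of the spliceosomal snRNPs, and PUS7 encodes an enzyme that makes pseudouridine in RNA. The labels give no treatment, no guide, no description of the control beyond its name, and no word on whether a knockout line was 1 clone or a pool. They also do not say that replicates came from separate cultures, so p-values measure the spread between these libraries, which may be technical.

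The HEK293T libraries held 7944276 to 11270267 counts and the HuCCT1 libraries 13776166 to 16795618. In HEK293T the libraries labelled Ctrl had a count on 29551 to 30073 genes, against 24947 to 27460 in the other HEK293T libraries. PUS7 stood at 16.0 ± 2.24 CPM (counts scaled to library size with TMM factors, per 1e+06; SD, n = 3) in the PUS7KO libraries and at 26.5 ± 0.510 CPM in Ctrl. SNRPD2 went against its label: it was higher in the libraries labelled SNRPD2KO than in Ctrl, at 280.4 ± 31.9 against 182.0 ± 13.6 CPM in HEK293T and at 288.1 ± 29.4 against 154.5 ± 7.30 CPM in HuCCT1. The rise was not particular to this label in HEK293T, where SNRPD2 stood at 260.5 ± 22.6 CPM in PUS7KO, also above every Ctrl library. A count per gene does not show the edited site, and every direction given below for SNRPD2KO is that of the libraries so labelled. The bile duct keratins KRT7 and KRT19 stood at 4595 and 1873 CPM in HuCCT1 Ctrl and were at or near 0 in HEK293T. KRT8 and KRT18, from the same list, had 2141 and 3063 CPM in HuCCT1 Ctrl and 181.0 and 98.8 CPM in HEK293T Ctrl. All 7 bile duct markers were above 1 CPM in HuCCT1 Ctrl, and 4 were in HEK293T Ctrl. Of 6 markers listed for HEK293T, 5 were above 1 CPM there, and PAX2 was not. Of 5 markers of other cells, only the fibroblast collagen gene COL1A1 passed 1 CPM. The summed level of these markers was 16.4 to 16.9 CPM in the HuCCT1 libraries labelled SNRPD2KO and 8.98 to 10.4 CPM in their controls, and its part in the results was not tested.

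NRF2 (gene NFE2L2) is held at a low level by KEAP1, which hands it to a ubiquitin ligase for destruction. Oxidants and electrophiles modify KEAP1, NRF2 then accumulates, pairs with a small MAF protein and binds antioxidant response elements, while BACH1 competes for the same elements as a repressor. The targets make glutathione, reduce quinones and thioredoxin, break down haem and store iron. Ferritin is a shell of heavy (FTH1) and light (FTL) chains, and both mRNAs also carry an iron responsive element near the cap, through which iron regulatory proteins block translation when iron is scarce. Ferritin is therefore set at the mRNA level and at translation, and counts of RNA show only the first.

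Sequence elements known for this programme are shown first, with the members in which they were found. The core of the antioxidant response element was searched as TGACNNNGC and, after the data had been seen, also as TGAGNNNGC, on both strands of the RefSeq promoter windows (GRCh38.p14, 250 bases before to 50 after a start). On the other strand these read GCNNNGTCA and GCNNNCTCA. Of 35116 windows of that length, 13.3% held the first form, 18.3% the second and 29.1% either. The table had an entry for 7 of the 9 members, in 8 windows, and GCLM, NQO1, TXNRD1 and OSGIN1 held a match. Stretches of the gene strand are given, 5′ to 3′, for the 3 matches that lie before the RefSeq start and at most touch an exon, with the match in capitals.
GCLM: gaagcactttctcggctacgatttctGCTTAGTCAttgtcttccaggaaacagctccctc
TXNRD1: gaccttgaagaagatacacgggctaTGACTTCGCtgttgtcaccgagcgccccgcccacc
OSGIN1: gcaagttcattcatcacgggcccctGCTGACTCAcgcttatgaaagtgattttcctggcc
The GCLM stretch is chr1:93909431-93909490 on the minus strand, with its match 26 bases before the RefSeq start and 26 of its bases in an annotated exon. The TXNRD1 stretch, chr12:104215655-104215714 on the plus strand, lies before the upstream start and outside any annotated gene. That of OSGIN1, chr16:83953116-83953175 on the plus strand, lies within the gene as listed but in no exon. Its match, TGAGTCAGC on the other strand, also holds the AP-1 motif TGANTCA. Further matches spanned the start itself, TGAGGGAGC in GCLM and TGACGGAGC at the upstream TXNRD1 start. NQO1 held TGAGGCTGC, and the downstream TXNRD1 start held TGACAAAGC and TGAGCAGGC, all within exons annotated in GENCODE 29. The NQO1 match, chr16:69726671-69726679, lies just outside the gene as listed in the count tables, chr16:69706996-69726668. A match is a string of letters and was not measured as a bound site.

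All 9 are protein-coding genes, at these hg38 positions in the tables. GCLC lies at chr6:53497341-53616970 and GCLM at chr1:93885199-93909456, both on the minus strand. NQO1, at chr16:69706996-69726668 on the minus strand, and OSGIN1, at chr16:83931311-83966332 on the plus strand, share a chromosome. HMOX1 lies at chr22:35380361-35394214 (plus), TXNRD1 at chr12:104215779-104350307 (plus) and SRXN1 at chr20:646615-653200 (minus). FTH1 lies at chr11:61959718-61967634 (minus) and FTL, the shortest, at chr19:48965309-48966879 (plus).

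The iron responsive element was searched in the 5′ UTR as a C, 5 bases, the loop CAGTGN and 5 bases that pair with the first 5 (GENCODE 29, GRCh38). It was found in 22 of 17413 genes with a 5′ UTR of at least 30 bases, which is 0.126%, and FTH1 and FTL were the members among them. The 30 bases around each loop are shown with the loop in capitals, since the ferritin results below compare these subunits.
FTH1: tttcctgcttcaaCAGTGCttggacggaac
FTL: tctcttgcttcaaCAGTGTttggacggaac
The FTH1 element is chr11:61967574-61967603 on the minus strand and the FTL element is chr19:48965334-48965363 on the plus strand, both in the first part of the 5′ UTR. They were identical at 27 of 30 positions.

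Levels differed more between the lines than between the labelled genotypes for several members. FTH1 averaged 15.8 CPM per kb of exon in HEK293T Ctrl and 520.1 in HuCCT1 Ctrl. For NQO1 the same values were 3.8 and 38.9, for TXNRD1 34.2 and 89.7, and for OSGIN1 0.409 and 4.17. HMOX1 had the opposite order, with 27.8 CPM per kb in HEK293T Ctrl and 5.52 in HuCCT1 Ctrl. FTL was nearly level, with 766.7 and 765.1 CPM per kb, and its ranges overlapped between the control groups. Per length, FTL was the most abundant member in all 5 groups, and OSGIN1 the least in 3, while GCLM, GCLC and SRXN1 stayed under 5 CPM per kb in every group. The tables of the lines were made separately, so these levels have no test. Other genes with many pseudogene copies, named after their values were seen, also differed between the tables, by unequal amounts: RPS3A had 1.12 CPM in HEK293T Ctrl and 890.4 CPM in HuCCT1 Ctrl, and RPL21 had 812.4 and 21.6 CPM. EEF1A1 had 12310 and 5754 CPM, and GAPDH had 1188 and 4769 CPM.

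**Figure D1:**
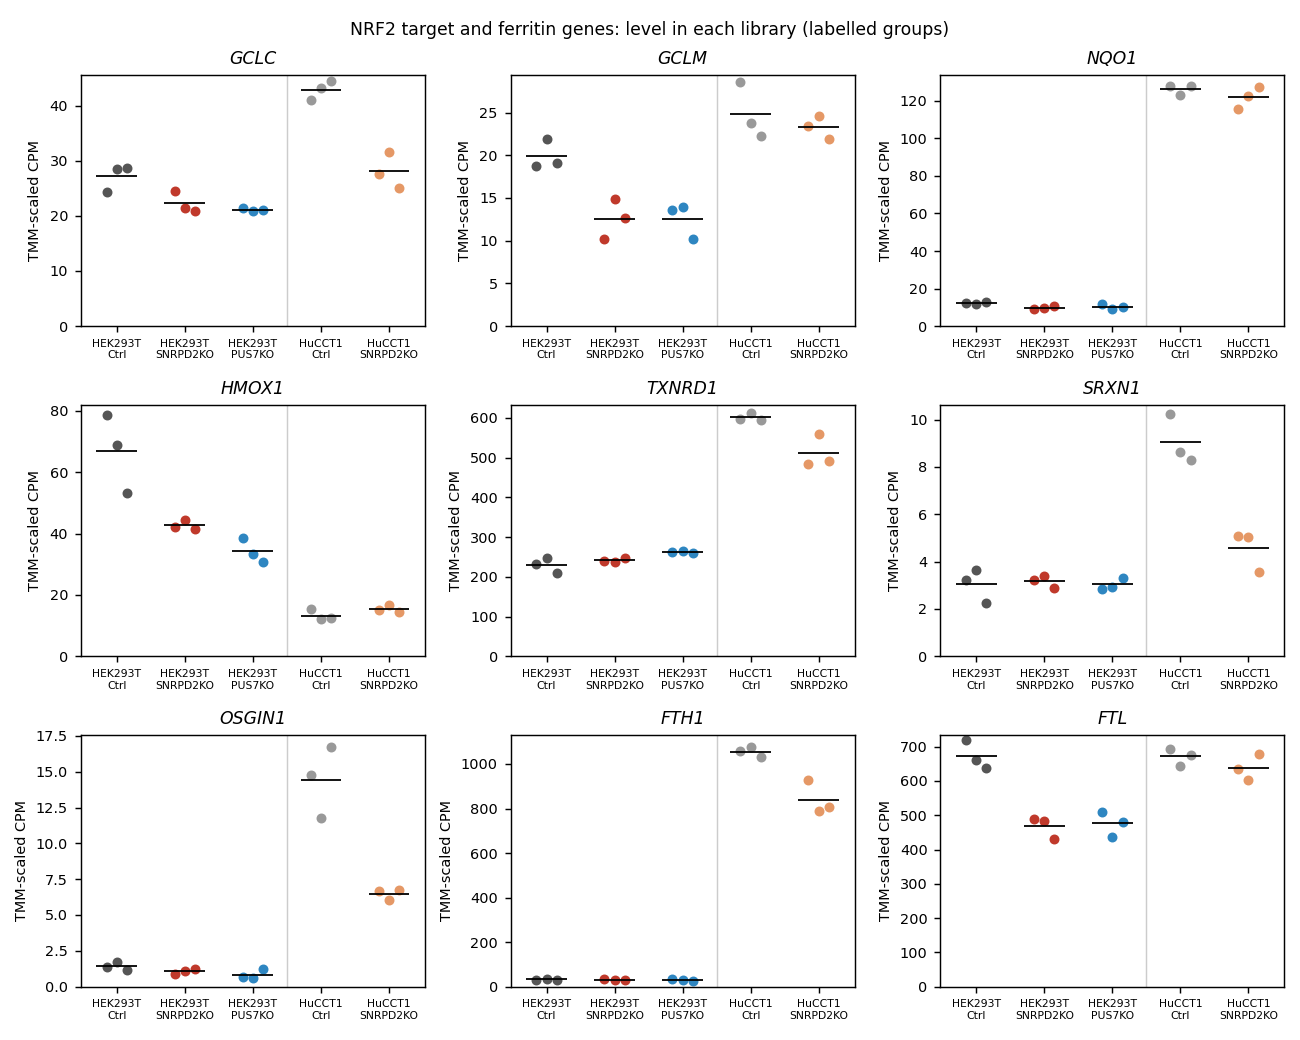
Level of each gene in every library, in TMM-scaled CPM on axes that start at 0, by labelled group. Each point is 1 library and each line the mean of 3. HMOX1 and FTL are lower in both HEK293T knockout groups than in Ctrl, and SRXN1, OSGIN1 and FTH1 are lower in the HuCCT1 libraries labelled SNRPD2KO.

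In HEK293T, GCLC, GCLM, HMOX1 and FTL were lower in the libraries labelled SNRPD2KO than in Ctrl, by 18.1% to 37.0%. The comparison was made over 15882 genes with edgeR's quasi-likelihood test, with Benjamini-Hochberg adjustment over all of them. The 4 calls among 9 members, all lower, stand beside 53.3% of all tested genes called in either direction and 26.4% called lower. In RNA from whole cultures, fewer cells with a gene and less of its RNA per cell cannot be told apart. The median log2 fold change was -0.31 over the members and 0.02 over all genes tested. PUS7KO libraries, compared with the same Ctrl libraries, had 5 members called beside 49.4% of all genes. Of these 4 were lower, beside 23.8%, and 1 was higher, beside 25.6%. Their median was -0.36, against 0.01 over all genes. The shares of members called in either direction are near those of all genes in both comparisons. The 4 of 9 called lower are a larger share than over all genes, which rests on few genes. The comparisons are not independent because they share their controls.

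Glutathione synthesis begins with glutamate-cysteine ligase, whose catalytic subunit is GCLC and whose modifier subunit, GCLM, raises its affinity for substrate. GCLM stood at 18.8, 21.9 and 19.1 CPM in the 3 HEK293T Ctrl libraries. It was at 10.2, 14.9 and 12.6 CPM in those labelled SNRPD2KO and at 13.6, 13.9 and 10.2 CPM in PUS7KO. Each knockout library was below each control library. The log2 fold change was -0.67 ± 0.15 (SE, adjusted p = 0.0016) for SNRPD2KO and -0.66 ± 0.15 (adjusted p = 0.002) for PUS7KO. GCLM is AT-rich: its transcript GC content is 37.3%, below the 38.5% that is the 10th percentile of tested genes, and fold changes across genes in the SNRPD2KO comparison moved with GC content (Spearman's rho 0.36 over 15406 genes, which are not independent replicates). With a GC trend removed from each library, GCLM changed by -0.18 (adjusted p = 0.33), so this call rests on how GC content is treated. In PUS7KO the call was kept with the trend removed.

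GCLC was at 24.3, 28.4 and 28.8 CPM in HEK293T Ctrl, at 24.6, 21.3 and 20.9 CPM with the SNRPD2KO label and at 21.4, 20.9 and 21.0 CPM in PUS7KO. The lowest control library lay just under the highest SNRPD2KO one, while PUS7KO did not overlap Ctrl. The changes were -0.29 ± 0.11 (adjusted p = 0.035) and -0.36 ± 0.11 (adjusted p = 0.011). The first was past the threshold in 8 of 15 alternatives and the second in 14 of 15. Without SNRPD2KO library 2 or 3, or Ctrl library 2 or 3, the first was between -0.22 and -0.25 (adjusted p = 0.12 to 0.14). GCLC overlaps 3 long noncoding RNA genes, and use of strand in the counting is not stated.

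NQO1 is a quinone reductase, and HMOX1 is the haem oxygenase that opens the haem ring and frees its iron. HMOX1 had 78.7, 68.8 and 53.3 CPM in HEK293T Ctrl. The libraries labelled SNRPD2KO had 42.3, 44.6 and 41.4 CPM, and the PUS7KO libraries had 38.7, 33.4 and 30.6 CPM. All 6 knockout libraries were below all 3 controls, whose own spread was wide. HMOX1 changed by -0.65 ± 0.12 (adjusted p = 0.00031) with the SNRPD2KO label and by -0.97 ± 0.13 (adjusted p = 9.2e-06) in PUS7KO, where it was 48.9% lower. NQO1 was at 12.1, 11.9 and 13.1 CPM in Ctrl, at 9.12, 9.68 and 10.9 CPM with the SNRPD2KO label and at 11.6, 9.18 and 10.4 CPM in PUS7KO. Its groups did not overlap in either comparison, as for 29.4% and 27.7% of all genes in the lower direction. The differences of -0.31 ± 0.14 (adjusted p = 0.077) and -0.25 ± 0.14 (adjusted p = 0.15) did not pass the test.

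Thioredoxin reductase TXNRD1 keeps thioredoxin reduced, and sulfiredoxin SRXN1 restores over-oxidised peroxiredoxins. TXNRD1 was at 231.6, 248.2 and 209.0 CPM in HEK293T Ctrl, at 239.7, 237.7 and 247.5 CPM with the SNRPD2KO label and at 262.4, 266.1 and 260.2 CPM in PUS7KO. The PUS7KO libraries lay above every other HEK293T library, with a change of 0.20 ± 0.08 (adjusted p = 0.049) against Ctrl. That call was lost in 12 of 15 alternatives, among them the omission of any compared library but the second Ctrl one, with adjusted p up to 0.19, and kept with limma voom and with no low-count filter. Against Ctrl the SNRPD2KO label gave 0.07 ± 0.08 (adjusted p = 0.45). TXNRD1 overlaps RPL18AP3 and EID3 on its own strand and a long noncoding RNA gene on the other. These held 10509 counts over the HEK293T libraries, and use of strand in the counting is not stated. SRXN1 had only 20 to 35 counts in HEK293T libraries, and its means of 3.05, 3.18 and 3.04 CPM in Ctrl, SNRPD2KO and PUS7KO lay within the spread of each group. The interval of its difference ran from -0.48 to 0.59 for the SNRPD2KO label. OSGIN1, an NRF2 target named as an oxidative stress-induced growth inhibitor, had 7 to 15 counts. It changed by -0.41 ± 0.39 (adjusted p = 0.39) and -0.78 ± 0.40 (adjusted p = 0.12), with overlapping groups.

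FTL, the light chain of ferritin, stood at 720.0, 662.0 and 637.7 CPM in Ctrl, at 488.1, 484.0 and 430.6 CPM with the SNRPD2KO label and at 510.1, 437.6 and 480.9 CPM in PUS7KO. The lowest control was above the highest knockout library by more than the spread within any group. FTL changed by -0.53 ± 0.09 (adjusted p = 7e-05) and -0.50 ± 0.09 (adjusted p = 0.00014), and both calls were kept in all 16 alternatives. FTH1, the heavy chain with the ferroxidase centre, was at 30.7, 34.5 and 31.4 CPM in Ctrl, 31.7, 29.6 and 27.4 CPM with the SNRPD2KO label and 33.6, 28.6 and 26.3 CPM in PUS7KO. These groups overlapped, with changes of -0.12 ± 0.11 (adjusted p = 0.36) and -0.12 ± 0.11 (adjusted p = 0.37). The FTH1 to FTL ratio per kb was 0.0207 ± 0.0021 in Ctrl (SD, n = 3), 0.0273 ± 0.00082 with the SNRPD2KO label and 0.0268 ± 0.0027 in PUS7KO.

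FTH1 has many processed pseudogenes, and reads can be split between them and the gene. The tables listed 25 FTH1 copies in HEK293T, 14 of them with a count, and these took 12.5% to 21.4% of the counts of the gene and its copies together. In HuCCT1 16 copies were listed and took 0.985% to 1.76%. For FTL the share was 0.108% to 0.372% in HEK293T and 0.167% to 0.256% in HuCCT1. The highest FTH1 shares in HEK293T were in 1 Ctrl and 1 PUS7KO library. With the copies added to the gene, FTH1 changed by -0.19 (adjusted p = 0.12) with the SNRPD2KO label in HEK293T and by -0.32 (adjusted p = 0.00098) in HuCCT1. In HEK293T the gene had 253 to 352 counts a library and its copies 42 to 75. Adding copies cannot return reads counted on neither. Whether such reads were lost was not tested, which limits the level, FTL ratio and fold change of FTH1 in HEK293T. BEST1 lies on the opposite strand over part of FTH1.

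**Figure D2:**
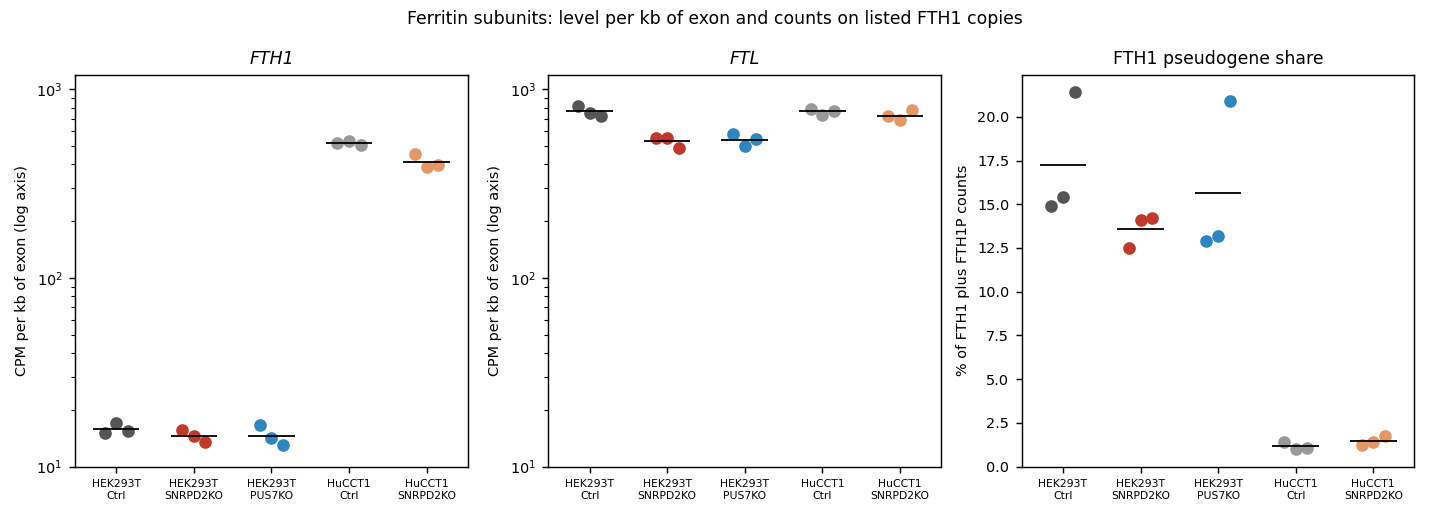
Ferritin subunits by library and labelled group: FTH1 and FTL in CPM per kb of exon (log axes), and the share of FTH1 plus FTH1 pseudogene counts that fell on the pseudogenes. Points are libraries and lines are means of 3. FTH1 averages 15.8 in HEK293T Ctrl and 520.1 in HuCCT1 Ctrl while FTL stays between 532.5 and 766.7 in all groups.

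Set directly against each other, the HEK293T knockouts had 0 of 9 members past the threshold, beside 4.77% of all genes. DESeq2 and limma voom also called 0, and 1 member, HMOX1, had an unadjusted p under 0.05. Over all genes the count was 758 and ran from 22, without the first library labelled SNRPD2KO, to 1891, without the third, while that of the members stayed at 0. HMOX1 was higher in all 3 libraries labelled SNRPD2KO than in all 3 PUS7KO libraries, by 0.32 ± 0.13 (adjusted p = 0.15), and its interval ran from 0.05 to 0.59. The narrowest interval was that of TXNRD1, from -0.29 to 0.05, and the widest that of OSGIN1, from -0.51 to 1.24. GCLM, with -0.01 ± 0.16, and FTL, with -0.03 ± 0.09, had intervals from -0.34 to 0.33 and from -0.21 to 0.15. These bounds leave room for differences of the size given, and a missed threshold does not show equality.

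In HuCCT1, GCLC, TXNRD1, SRXN1, OSGIN1 and FTH1 were lower in the libraries labelled SNRPD2KO than in Ctrl, by 1.18-fold to 2.22-fold, whereas GCLM, NQO1, HMOX1 and FTL did not pass the test. The 5 calls, all lower, stand beside 57.2% of 15007 genes called in either direction and 28.4% called lower. The median was -0.24 over the members and 0.003 over all genes.

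OSGIN1 had the largest change, from 14.7, 11.8 and 16.8 CPM in Ctrl to 6.65, 6.06 and 6.74 CPM. Every library labelled SNRPD2KO was below every control, and the fold change was -1.15 ± 0.15 (adjusted p = 4.7e-05). SRXN1 fell in the same way, from 10.2, 8.65 and 8.30 CPM to 5.10, 5.05 and 3.56 CPM, with a change of -0.98 ± 0.18 (adjusted p = 0.00059). Both were measured with 56 to 232 counts a library. MLYCD overlaps OSGIN1 and a further protein-coding gene overlaps SRXN1, each on the same strand.

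GCLC stood at 41.0, 43.1 and 44.4 CPM in HuCCT1 Ctrl and at 27.6, 31.6 and 25.1 CPM with the SNRPD2KO label. The groups were well apart, and the change of -0.61 ± 0.09 had an adjusted p of 0.00014 by edgeR. Its partner GCLM was at 28.5, 23.8 and 22.2 CPM in Ctrl and at 23.5, 24.6 and 21.9 CPM with the label, a change of -0.09 ± 0.10 (adjusted p = 0.47) with overlapping groups. The GCLC to GCLM ratio per kb was 1.10 ± 0.18 in Ctrl and 0.753 ± 0.047 with the label, and these ranges did not overlap.

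TXNRD1 was at 596.3, 612.9 and 595.1 CPM in HuCCT1 Ctrl and at 484.5, 558.3 and 490.4 CPM with the SNRPD2KO label. The controls were close together and all above the others, with a change of -0.24 ± 0.06 (adjusted p = 0.0062). FTH1 had 1057, 1078 and 1033 CPM in Ctrl and 925.9, 789.4 and 805.1 CPM with the label. It changed by -0.33 ± 0.06 (adjusted p = 0.00097), and its groups did not overlap. FTL, at 694.1, 644.9 and 676.3 CPM in Ctrl and 634.6, 601.5 and 679.7 CPM with the label, changed by -0.07 ± 0.06 (adjusted p = 0.3). The heavy chain fell in HuCCT1, and the light chain's interval ran from -0.20 to 0.05.

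NQO1 was at 128.0, 123.3 and 128.0 CPM in HuCCT1 Ctrl and at 115.7, 122.7 and 127.2 CPM with the label, a change of -0.05 ± 0.06 (adjusted p = 0.44). HMOX1 was at 15.4, 12.1 and 12.3 CPM in Ctrl and at 15.02, 16.6 and 14.3 CPM with the label. Its change of 0.21 ± 0.12 (adjusted p = 0.16) was the only positive one among the members in this line. Without the first Ctrl library it was 0.32 (adjusted p = 0.040).

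**Figure D3:**
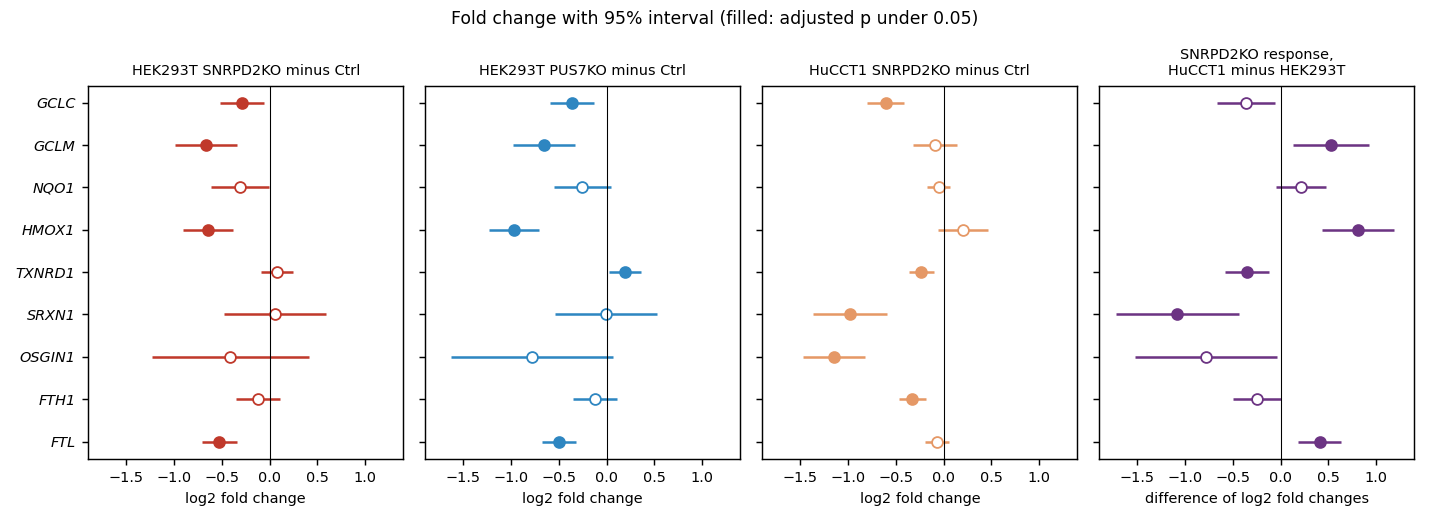
Log2 fold change of each gene with its 95% interval in 3 comparisons with Ctrl, and, in the last panel, the difference between the lines in the response to the SNRPD2KO label. Filled points have an adjusted p under 0.05. FTL and HMOX1 lie left of 0 in both HEK293T panels, OSGIN1 and SRXN1 lie farthest left in HuCCT1, and 5 members are filled in the last panel.

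The difference between the lines was tested itself, as an interaction of label and line over 12 libraries and 17617 genes. It passed for 5 of 9 members, beside 40.7% of all genes. The fold change in HuCCT1 minus that in HEK293T was above 0 for 3 of them, beside 19.8%, and below 0 for 2, beside 20.9%. It was 0.81 ± 0.18 (adjusted p = 0.0015) for HMOX1 and 0.41 ± 0.11 (adjusted p = 0.0051) for FTL. For SRXN1 it was -1.08 ± 0.31 (adjusted p = 0.0087) and for TXNRD1 -0.35 ± 0.11 (adjusted p = 0.014). These 4 calls were kept in every alternative run. GCLM differed by 0.53 ± 0.19 (adjusted p = 0.032), but by -0.06 (adjusted p = 0.86) with the GC trend removed. It also missed the threshold without HEK293T SNRPD2KO library 1 or 3, HEK293T Ctrl library 2, HuCCT1 SNRPD2KO library 1 or 2, or HuCCT1 Ctrl library 2 or 3 (adjusted p up to 0.13). FTH1 differed by -0.25 ± 0.12 (adjusted p = 0.11), OSGIN1 by -0.78 ± 0.35 (adjusted p = 0.087), GCLC by -0.37 ± 0.14 (adjusted p = 0.051) and NQO1 by 0.21 ± 0.12 (adjusted p = 0.19). FTH1 passed in 2 of 21 alternatives, with no low-count filter (adjusted p = 0.028) and without HuCCT1 SNRPD2KO library 1 (0.027), and OSGIN1 without HuCCT1 Ctrl library 2 (0.046). GCLC passed in 7 of 20 (adjusted p = 0.019 to 0.0497): with RLE factors, no filter or DESeq2, and without HEK293T SNRPD2KO library 2 or 3, HEK293T Ctrl library 3 or HuCCT1 SNRPD2KO library 2.

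The wider machinery around the members was read from 6 lists of 93 further genes. Their values are from the main fits and were not read with the GC trend removed or under the other alternatives. Spearman's rho of fold change with GC content over all genes was 0.36 for SNRPD2KO and 0.177 for PUS7KO in HEK293T. In HuCCT1 it was -0.02. Among 10 regulators of NRF2 in HEK293T, 7 were lower and 1 higher with the SNRPD2KO label, beside 26.4% and 26.9% of all genes, and the list median was -0.59 against 0.02. In PUS7KO 6 were lower and 1 higher, beside 23.8% and 25.6%. The repressor BACH1 was at 62.6 ± 6.06 CPM (SD, n = 3) with the SNRPD2KO label, 72.7 ± 1.73 CPM in PUS7KO and 199.3 ± 10.7 CPM in Ctrl. It changed by -1.67 (adjusted p = 1.1e-09) and -1.45 (adjusted p = 3.3e-09). NFE2L2 itself, at 37.9 ± 3.24 CPM in Ctrl, had lower levels with the label without overlap, a change of -0.33 (adjusted p = 0.016), and in PUS7KO it changed by -0.16 (adjusted p = 0.24). KEAP1 was lower in all 3 comparisons with Ctrl, by -0.33 (adjusted p = 0.012), by -0.61 in PUS7KO (adjusted p = 0.00012) and by -0.73 in HuCCT1 (adjusted p = 6.3e-06). In HEK293T the small MAF genes changed with the SNRPD2KO label by -1.36 (MAFF, adjusted p = 3.5e-05), -0.77 (MAFG, 0.00012) and -0.79 (MAFK, 0.00019). In PUS7KO they changed by -1.15, -0.92 and -0.66 in that order (adjusted p = 0.00017, 2.7e-05 and 0.001). In HuCCT1, 5 regulators were lower and 1 higher beside 28.4% and 28.8% of all genes. There MAFF and MAFK changed by -0.98 (adjusted p = 6.2e-07) and -1.55 (adjusted p = 3.9e-07). The third, MAFG, changed by 0.23 (adjusted p = 0.036), with overlapping groups. NFE2L2 changed by 0.07 (adjusted p = 0.41) and BACH1 by -0.48 (adjusted p = 0.00027).

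The counts of the other lists are read against the same shares of all genes with the SNRPD2KO label, 26.9% higher and 26.4% lower in HEK293T and 28.8% and 28.4% in HuCCT1. Of 17 glutathione genes tested in HEK293T, 10 were higher and 3 lower, while of 18 in HuCCT1 5 were higher and 9 lower. PUS7KO, against the same HEK293T Ctrl libraries, had 10 of 17 higher and 4 lower, beside 25.6% and 23.8% of all genes. CHAC1, which degrades glutathione, was at 38.5 ± 4.2 CPM with the label, 34.2 ± 2.72 CPM in PUS7KO and 8.86 ± 1.29 CPM in HEK293T Ctrl. In HuCCT1 it had the opposite order, with 16.2 ± 1.35 CPM with the label and 65.7 ± 2.18 CPM in Ctrl. The cystine transporter gene SLC7A11 was at 45.5 ± 6.69 CPM with the label, 73.3 ± 8.58 CPM in PUS7KO and 20.3 ± 6.48 CPM in HEK293T Ctrl. It was the 1 of 17 glutathione genes called between the knockouts (-0.69, adjusted p = 0.025), beside 4.77% of all genes. That call was not read under the alternatives. In HuCCT1 SLC7A11 changed by 0.12 (adjusted p = 0.28), and its partner chain SLC3A2 by -1.96 (adjusted p = 3.3e-09). Glutathione synthetase, GSS, which completes what GCLC and GCLM begin, rose by 1.45 (adjusted p = 3.5e-09) in HEK293T and by 0.62 (adjusted p = 4.8e-06) in HuCCT1 with the label. In PUS7KO GSS rose by 1.31 (adjusted p = 1.3e-08).

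Among thioredoxin, peroxiredoxin and superoxide genes, 6 of 15 were higher and 4 lower in HEK293T with the SNRPD2KO label. These stand beside 26.9% and 26.4% of all genes. In PUS7KO 5 of 15 were higher and 5 lower, beside 25.6% and 23.8%. In HuCCT1 the counts were 2 and 8 of 14, beside 28.8% and 28.4%. The thioredoxin inhibitor gene TXNIP changed by 1.22 (adjusted p = 6.4e-07) and -1.45 (adjusted p = 1.3e-08) in the lines, and by 1.55 (adjusted p = 7.2e-08) in PUS7KO. The mitochondrial superoxide dismutase gene SOD2 was at 52.3 ± 6.76 CPM with the label and 128.5 ± 3.94 CPM in Ctrl in HuCCT1. Genes that supply NADPH, which TXNRD1 and glutathione reductase consume, were higher in 5 of 6 cases in HEK293T and in 4 of 6 in HuCCT1. All genes called higher were 26.9% and 28.8%. PUS7KO also had 5 of 6 higher and 1 lower, beside 25.6% and 23.8%. The gene called lower was ME1 in HEK293T (-0.72, adjusted p = 9.7e-05) and TKT in HuCCT1 (-0.21, adjusted p = 0.0065). TALDO1 rose by 1.06 (adjusted p = 1.1e-07) and 0.81 (adjusted p = 3.7e-07), and IDH1 by 0.37 (adjusted p = 0.0013) and 1.72 (adjusted p = 1.9e-08). In PUS7KO the rises were 0.82 (adjusted p = 2.1e-06) for TALDO1 and 0.495 (adjusted p = 0.00014) for IDH1. Of detoxification and haem breakdown genes, 6 of 14 were higher and 3 lower in HEK293T, beside 26.9% and 26.4% of all genes. In PUS7KO 7 of 14 were higher and 4 lower, beside 25.6% and 23.8%. In HuCCT1 the counts were 6 and 8 of 18, beside 28.8% and 28.4%. The biliverdin reductase gene BLVRB rose by 0.98 (adjusted p = 3.1e-06) with the SNRPD2KO label in HEK293T and by 0.95 (adjusted p = 5.7e-06) in PUS7KO.

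Of the iron genes, 8 of 15 were higher and 4 lower in HEK293T, beside 26.9% and 26.4% of all genes, and 5 and 6 of 17 in HuCCT1, beside 28.8% and 28.4%. In PUS7KO 5 of 15 were higher and 4 lower, beside 25.6% and 23.8%. The transferrin receptor gene TFRC, which brings iron in, was at 90.0 ± 5.52 CPM with the SNRPD2KO label, 75.9 ± 2.32 CPM in PUS7KO and 155.4 ± 12.2 CPM in HEK293T Ctrl. It fell in the same HEK293T groups as FTL, with changes of -0.79 (adjusted p = 9.6e-07) and -1.03 (adjusted p = 8.6e-08). In HuCCT1 it changed by 0.13 (adjusted p = 0.12). The iron regulatory protein gene IREB2 changed by -0.61 (adjusted p = 2.5e-05) and by 0.58 (adjusted p = 0.00021) in the lines, and in PUS7KO by -0.36 (adjusted p = 0.0031). NCOA4, the receptor that delivers ferritin to lysosomes, changed by -0.003 (adjusted p = 0.98) in HEK293T and rose by 0.20 (adjusted p = 0.0063) in HuCCT1. The iron exporter gene SLC40A1 was at 0.744 ± 0.128 CPM with the label and 1.68 ± 0.565 CPM in Ctrl in HuCCT1, a change of -1.17 (adjusted p = 0.014), and changed by -0.20 (adjusted p = 0.44) in HEK293T. LCN2, a siderophore-binding protein gene, changed by -2.52 (adjusted p = 3.6e-09) in HuCCT1, from 107.2 ± 10.5 to 18.6 ± 0.424 CPM.

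**Figure D4:**
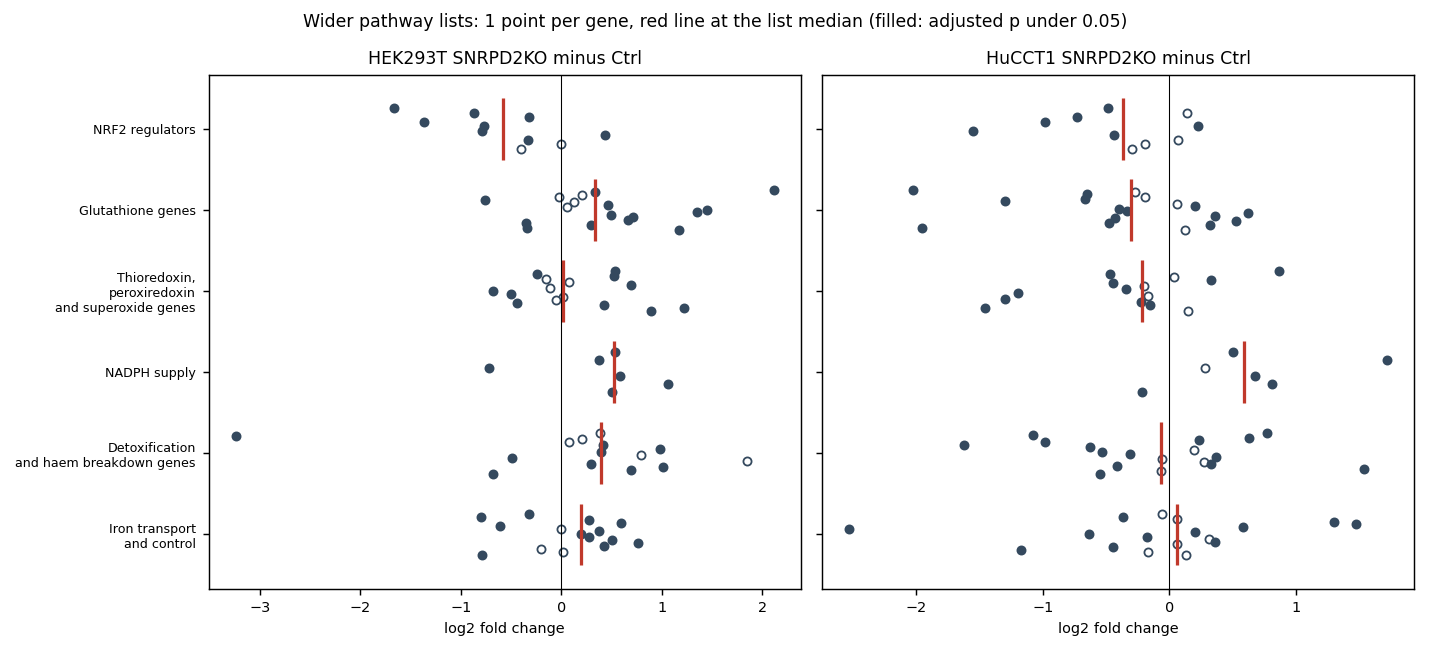
Log2 fold change of each tested gene of 6 pathway lists with the SNRPD2KO label against Ctrl, in HEK293T and HuCCT1. Each point is a gene, filled where the adjusted p is under 0.05, and the red line is the list median. The median of the NRF2 regulators lies below 0 in both panels, and that of the glutathione genes lies above 0 in HEK293T and below 0 in HuCCT1.

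The gene most like each member was sought by Pearson's correlation of log2 CPM over the 15 libraries, centred within each line, among 8658 or 8659 genes. These values describe libraries that share groups and controls. GCLC was closest to DDX5 (r = 0.965), GCLM to HELQ (0.929), HMOX1 to PKM (0.946) and FTL to HOXA-AS2 (0.95). FTH1 was closest to MGST2 (0.896), SRXN1 to ZNF627 (0.956), OSGIN1 to MED8 (0.92), TXNRD1 to XPNPEP3 (0.908) and NQO1 to POLG2 (0.896). SRXN1 and OSGIN1 were not among the candidate genes, so they had 8659 candidates where each of the other members, itself left out, had 8658. Neither could be picked as the closest gene of a member, so the search cannot show whether they were close to each other. None of the remaining members was the closest gene of another member.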

How the data were processed

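RNA from HEK293T and HuCCT1 was made into libraries with a stranded kit that depletes ribosomal RNA and sequenced on a HiSeq2000, per the labels' protocols. The authors deposited 1 table of whole-number counts per gene for each line, not normalized. The submitters' processing notes name cutadapt 4.2, HISAT2 2.2.1, RSEM and hg38. Their roles, the annotation release and the use of strand in counting are not given in the sources used here.

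Groups came from the labels. Each line was fitted separately in R 4.3.3 with edgeR 4.0.16: TMM factors, a low-count filter (minimum count 10, minimum total 15), the quasi-likelihood F test and two-sided p-values adjusted by Benjamini and Hochberg over all genes tested, at 0.05. The HEK293T fit held all 9 libraries, and the difference between lines was an interaction over the 12 libraries labelled SNRPD2KO or Ctrl. The coefficient of variation between replicates was 10.8% in HEK293T and 10.1% in HuCCT1. All 9 members passed this filter in each comparison; with a minimum count of 30, OSGIN1 was not tested in HEK293T. Fold changes are log2 of the first group over the second; standard errors and 95% intervals came from the fitted model. Levels per kb use the union of exons. The pipeline was tested on simulated data.

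Alternatives were RLE and upper quartile factors, no filter, a minimum count of 30, DESeq2 1.42.0, limma voom 3.58.1, a replicate block, removal of a GC trend, the compared groups alone, each library left out, and pseudogene counts added. The second motif form, the stem check and the genes set beside FTH1 were chosen later, after seeing the data. The members and lists were chosen with earlier results of these data known. From each list the text names genes among the 2 with the largest change per direction that passed the threshold, reached 5 CPM and did not overlap between groups. NFE2L2, KEAP1, BACH1, SLC7A11, TFRC, SLC40A1, NCOA4 and IREB2 were named regardless, and values of a gene named in 1 comparison are also given in others. MAFG was added to complete the small MAF genes. Not every gene meeting the rule is named.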

Additional observations from a re-analysis of the deposited data

Results flagged for a closer look

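The response to the SNRPD2KO label differed between the lines for the genes given here, by the interaction test of edgeR (HuCCT1 minus HEK293T, log2, Benjamini-Hochberg adjusted p under 0.05). Over all genes tested, 40.7% passed, 19.8% above 0 and 20.9% below. Every member and every gene of the 6 wider lists that passed is given, and no cause was tested. Differences moved with GC content across genes (Spearman's rho -0.239 over 17013 genes). The list genes were not read with the GC trend removed. Among the members these were GCLM (0.53), HMOX1 (0.81), TXNRD1 (-0.35), SRXN1 (-1.08) and FTL (0.41).

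Of the NRF2 regulators, NFE2L2 differed by 0.35, KEAP1 by -0.45, BACH1 by 1.14, CUL3 by 0.96, MAFG by 0.95, MAFK by -0.80 and NFE2L1 by -0.92. Of 18 glutathione genes tested, 1 passed above 0 and 10 below, beside 19.8% and 20.9% of all genes. GPX3 differed by 0.78. Those below 0 were SLC7A11 (-1.09), SLC3A2 (-1.66), GSS (-0.88), GSR (-0.43), GPX1 (-0.69), GPX8 (-0.90), GSTP1 (-1.19), GSTA4 (-3.86), CHAC1 (-4.18) and GLRX (-1.02). Of 15 thioredoxin, peroxiredoxin and superoxide genes tested, 1 passed above 0 and 8 below, beside the same shares. PRDX3 differed by 0.43. Those below 0 were TXN2 (-0.63), TXNRD2 (-0.79), TXNIP (-2.72), PRDX2 (-0.54), PRDX4 (-0.56), PRDX5 (-0.94), PRDX6 (-0.28) and SOD2 (-1.29).

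Of the genes of NADPH supply, TALDO1 differed by -0.30, TKT by -0.76, ME1 by 0.96 and IDH1 by 1.30. Of the detoxification and haem breakdown genes, AKR1B1 differed by -1.11, AKR1C3 by -2.28, CBR1 by -0.50, ABCC2 by 2.13, ABCC3 by 3.04, EPHX1 by 0.78, NQO2 by -0.75, BLVRA by -0.77, BLVRB by -0.66 and SLC48A1 by -0.81. Of the iron genes, TFRC differed by 0.87, SLC40A1 by -1.01, IREB2 by 1.15, PCBP1 by -1.05, PCBP2 by -0.42, SLC25A37 by -0.75, SLC39A14 by -0.92, FECH by 0.66 and ALAS1 by 0.39. GSTA4 did not pass the low-count filter in HuCCT1, nor AKR1C3 and ABCC3 in HEK293T, so the sizes fitted for these 3 rest on a line with few counts and depend on the prior count. In the wider lists, 16 genes passed the test in both lines with opposite signs. The matching share of all genes was not computed, so this count is not a result about the lists. Over all genes, 53.3% were called in HEK293T and 57.2% in HuCCT1 in either direction.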

How the results depend on the processing

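Of 718 values of single members under the alternatives, 653 kept their direction and side of the threshold, 29 fell short of it, 14 newly passed it and 22 turned sign. Sign changes concerned differences that did not pass the test, except for GCLM between the lines. With no low-count filter SRXN1 in PUS7KO was 0.078, and with limma voom 0.0085. With the GC trend removed SRXN1 was -0.15 for the SNRPD2KO label in HEK293T and -0.027 between the HEK293T knockouts, and GCLM was 0.29 between the knockouts and -0.056 between the lines. NQO1 (-0.35, adjusted p = 0.0496), FTH1 (-0.26, adjusted p = 0.046) and, in PUS7KO, OSGIN1 (-0.98, adjusted p = 0.048) then passed. Leaving out single libraries gave ranges of -0.17 to 0.15 for SRXN1 in PUS7KO, -0.11 to 0.21 for SRXN1 with the SNRPD2KO label in HEK293T and -0.17 to 0.016 for GCLM in HuCCT1. Between the HEK293T knockouts they were -0.13 to 0.12 for GCLM, -0.14 to 0.027 for NQO1, -0.072 to 0.10 for FTH1 and -0.080 to 0.035 for FTL.

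GCLC with the SNRPD2KO label in HEK293T was not called without filter (adjusted p = 0.26), with the groups alone (0.055), or without SNRPD2KO libraries 2 or 3 or Ctrl libraries 2 or 3 (0.12 to 0.14). The genes called between the HEK293T knockouts, 758 of all tested, numbered 1292 with no filter, 127 with the GC trend removed and 464 with the groups alone, and 22 to 1891 with a library left out. They were 22 without SNRPD2KO library 1, 29 without library 2, 1891 without library 3, and 285 and 32 without PUS7KO libraries 1 and 2. No member was called there under any of these settings, and counts in the other comparisons stayed within 1.5 times. By chi-square per degree of freedom between the counts of 2 libraries, SNRPD2KO libraries 1 and 2 stood at 3.42. Library 3 stood at 12.1 and 10.3 from these, and at 7.3, 7.45 and 6.84 from the PUS7KO libraries. PUS7KO library 2 stood at 11 and 11.4 from the others of its group, which stood at 4.02. What caused the range of call counts was not tested.

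Same-numbered libraries of different groups did not deviate together over all genes. That cannot show whether samples were handled in pairs, and the labels do not say. With a replicate block the called genes numbered 8320, 7674, 560, 8346 and 6933 in the HEK293T SNRPD2KO, PUS7KO and direct comparisons, in HuCCT1 and in the interaction. GCLC (adjusted p = 0.0515) and, in PUS7KO, TXNRD1 (0.064) then missed the threshold, and FTH1 between the knockouts was 0.0029. OSGIN1 and SRXN1 had 7 to 35 counts a library in HEK293T, which limits their precision, and OSGIN1 was not tested there with a minimum count of 30.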
